A study of Mus musculus with 29 samples.

Results

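Of the 29 arrays in the series, 10 came from primary abdominal neuroblastomas whose title numbers lie below 100, and these are the lower-numbered tumours described here. The 7 caspase-8 deficient tumours carry the title numbers 15 to 21, and the 3 wild type caspase-8 tumours the numbers 10, 12 and 13. Animals of both genotypes were TH-MYCN transgenic mice labelled as strain 129X1/SvJ. The other 14 tumours, 10 deficient and 4 wild type with title numbers of 100 and above, entered the fit to share its estimate of spread and to test whether the genotype difference differed between the series of numbers. The 5 bone marrow samples were not used. The labels do not give age or sex, the deleted stretch of the caspase-8 gene, the promoter or Cre behind the deletion, or what the title numbers stand for. Nor do they say whether the tumours came from separate animals. The p-values therefore measure only how far these samples spread, which may be technical.

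TH-MYCN mice express MYCN from the tyrosine hydroxylase promoter in the sympathoadrenal lineage and develop tumours that resemble childhood neuroblastoma. Caspase-8 is the initiator protease of death receptor signalling: ligand-bound receptors recruit the adaptor FADD, which gathers and activates caspase-8. Caspase-8 also holds back necroptosis, the lytic cell death run by RIPK3 and MLKL, and its gene is often silenced in human neuroblastoma.

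The values are log2 array signals, so a difference of 1 stands for a 2-fold change in signal. Across probe sets, correlations between arrays ranged from 0.984 to 0.993 among the 36 pairs without wild type tumour 1, and from 0.974 to 0.987 in the 9 pairs with it. Wild type tumour 1 was the least like the others, and with only 3 wild type arrays each result below is given with and without it where it matters. It had the highest value of the 10 tumours for 2627 of the 18193 genes (14%), while each other tumour was highest for 7.67% to 11.9% of them. The lowest value was most often that of deficient tumour 7 (18.7% of genes) or deficient tumour 5 (15.6%), followed by wild type tumour 1 (13.9%). The array's 18S ribosomal RNA control signal ran between 10.06 and 11.28 in deficient tumours, median 10.76, against 10.11, 10.11 and 9.97 in wild type tumours (difference 0.68, exact permutation p = 0.0417, two-sided). The 3' minus 5' control signal, a measure of RNA quality, was 0.576 to 0.901 in deficient tumours, against 0.562, 0.842 and 0.777 in wild type tumours (exact permutation p = 0.750). Xist was high in 3 of 7 deficient and in 1 of 3 wild type tumours, with low Y-linked signal in the same tumours. The wild type one was wild type tumour 1. In a fit with Xist signal as a covariate, the Syne2 probe set described below was called (difference 1.28, limma adjusted p = 0.0277). Beyond that fit and the values given, the part of Xist signal and of wild type tumour 1 in the results was not tested.

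All 10 tumours carried the expression of their labelled tissue. The adrenergic core transcription factors, which set the identity of noradrenergic neuroblastoma, averaged between 9.10 and 9.52 in deficient tumours, against 8.92, 9.44 and 9.38 in wild type tumours. Mycn, the mouse counterpart of the transgene, had a signal of 7.43 to 7.86 in deficient tumours, median 7.68, against 7.45, 7.86 and 7.53 in wild type tumours, a difference of 0.04 (SE 0.11). Th, the tyrosine hydroxylase gene, lay between 10.25 and 11.76 in deficient tumours, median 11.15, against 10.31, 11.53 and 11.02 in wild type tumours. Dbh, which makes noradrenaline from dopamine, lay between 7.77 and 9.05 in deficient tumours, median 7.95, against 6.49, 9.22 and 8.12 in wild type tumours. The groups overlapped for all 3 genes. The differences of Th, 0.13 (SE 0.47), Dbh, 0.16 (SE 0.39), and Mycn were within the spread between samples, and all 3 turned negative without wild type tumour 1, at -0.19, -0.57 and -0.05.

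The targeted gene did not separate the genotypes. Casp8 signal was 4.94 to 5.89 in deficient tumours, median 5.66, against 6.91, 5.23 and 5.57 in wild type tumours. Wild type tumour 1 was the highest of the 10, and the other two wild type values lay inside the deficient range. The mean was 5.50 ± 0.37 in deficient tumours (SD, n = 7) and 5.90 ± 0.89 in wild type tumours (SD, n = 3), a difference of -0.40 with a 95% interval of -1.07 to 0.26 (exact permutation p = 0.333). Leaving out wild type tumour 1 gave a difference of 0.10. The array holds 1 probe set for Casp8, and a probe set outside the deleted stretch would not check the genotype.

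Genes that act around caspase-8 did not pass the test in either direction. Upstream of it, 10 of 12 death ligands and receptors had lower means in deficient tumours, with a list median of -0.11, against a median of -0.01 over all genes. Ltb, which encodes lymphotoxin beta, had 3.16 to 4.07 in deficient tumours, median 3.67, against 5.64, 3.30 and 3.55 in wild type tumours. Tnfrsf1b, a receptor for tumour necrosis factor, had 4.42 to 5.08 in deficient tumours, median 4.54, against 6.07, 4.32 and 4.65 in wild type tumours. For both genes wild type tumour 1 stood above every other tumour and the other wild type values fell within or below the deficient range. Tnfsf10, the gene of the ligand TRAIL, differed by -0.24 (SE 0.21). Without wild type tumour 1 these differences were 0.26 for Ltb, 0.18 for Tnfrsf1b and 0.14 for Tnfsf10, and 9 of the 12 genes were higher in deficient tumours.

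Of the adaptors and regulators that meet caspase-8 at the receptor, 12 of 14 had lower means in deficient tumours, with a median of -0.12. Without wild type tumour 1, 8 of 14 were lower, with a median of -0.04. Fadd had 4.95 to 6.01 in deficient tumours, median 5.48, against 6.14, 5.56 and 5.64 in wild type tumours, a difference of -0.31 (SE 0.18). Traf2, an adaptor of TNF receptor signalling, differed by -0.23 (SE 0.13), and Cyld, a deubiquitinase that trims the receptor complex, by -0.27 (SE 0.15). The deficient and wild type values of all 3 overlapped, and the Fadd difference was -0.13 without wild type tumour 1. Cflar, the catalytically inactive relative of caspase-8 that pairs with it, had 5.60 to 6.46 in deficient tumours, median 5.92, against 6.85, 5.92 and 6.03 in wild type tumours.

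Necroptosis genes showed the same single high wild type tumour. Ripk3 had 3.94 to 4.53 in deficient tumours, median 4.29, against 5.44, 3.92 and 4.44 in wild type tumours. Mlkl, the pore-forming effector, had 3.18 to 3.44 in deficient tumours, median 3.25, against 3.99, 3.26 and 3.49 in wild type tumours. The differences were -0.32 (SE 0.27) for Ripk3 and -0.29 (SE 0.20) for Mlkl. The list median over 6 genes was -0.23, and 0.06 without wild type tumour 1. Among the other caspases, 6 of 7 had lower means, with a median of -0.18, and 0.00 without wild type tumour 1. Casp1, the protease of the inflammasome, had 4.29 to 4.97 in deficient tumours, median 4.72, against 7.18, 4.30 and 4.57 in wild type tumours. Casp4 differed by -0.37 (SE 0.21) and Casp12 by -0.33 (SE 0.19). Without wild type tumour 1 the differences were 0.31 for Casp1, -0.01 for Casp4, 0.10 for Ripk3 and -0.08 for Mlkl. Of Casp8 and the 39 other genes in these 4 lists, 23 had their highest value of the 10 tumours in wild type tumour 1. Mean log2 signal was at least 5 for 3 of 12 death ligands and receptors and 2 of 6 necroptosis genes. It was at least 5 for 4 of 7 other caspases and 14 of 14 adaptors and regulators. Low signals are compressed on the array, so small differences there limit signal and not transcript level. Further downstream, the apoptosome and caspase inhibitor genes had a median of -0.08 over 8 genes and the pro-apoptotic Bcl2 family -0.02 over 10 genes.

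**Figure D1:**
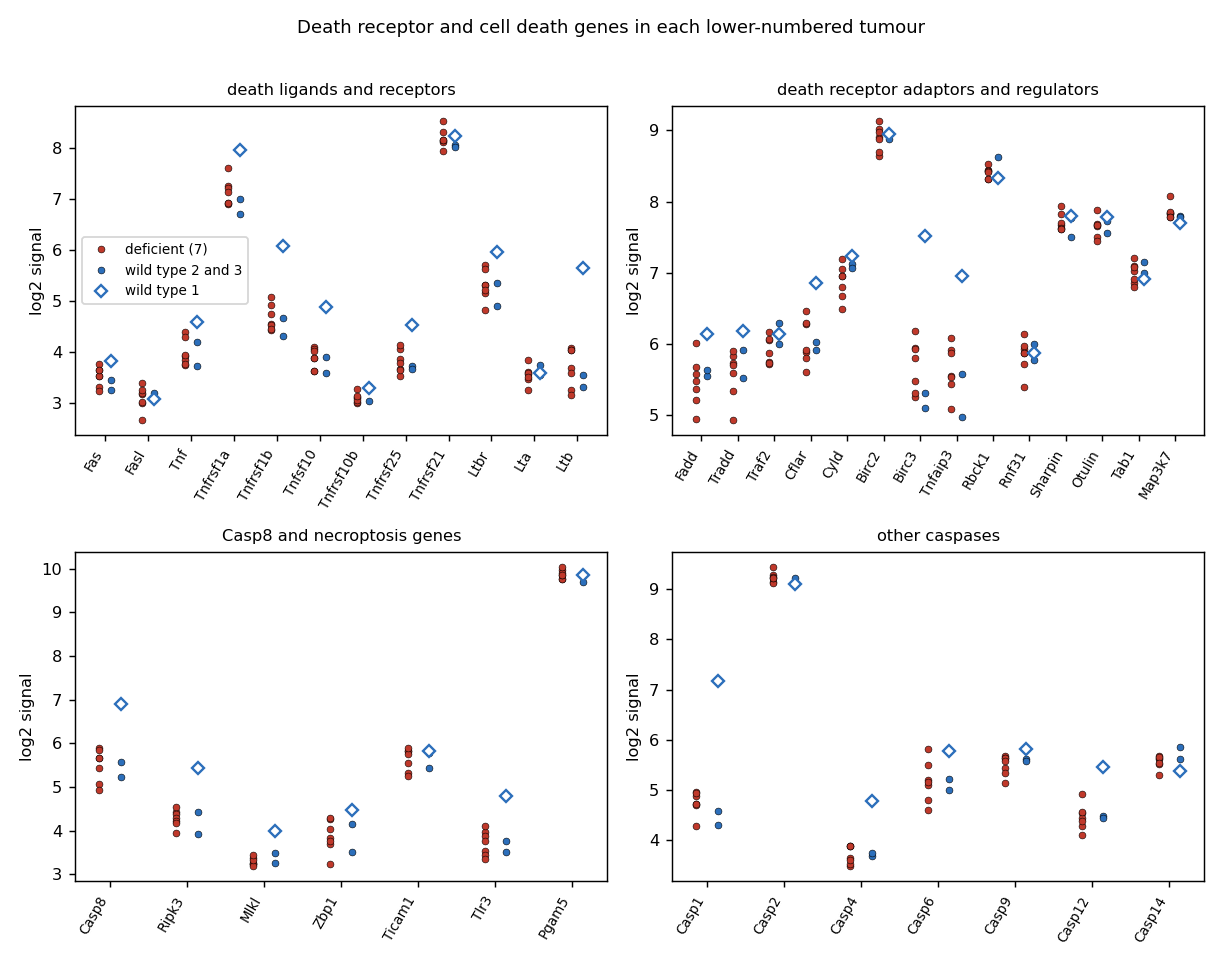
Log2 signal (vertical axes) of the measured genes of 4 cell death lists, with Casp8 beside the necroptosis genes, in each of the 7 deficient tumours (red), wild type tumours 2 and 3 (blue) and wild type tumour 1 (open diamonds). The diamonds lie highest for 23 of the 40 genes, while wild type tumours 2 and 3 mostly fall among the deficient tumours.

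The comparison across all genes asked whether caspase-8 deficiency changed the transcriptome of these tumours. No gene of 18193 passed an adjusted p of 0.05 in limma (0% called, lowest adjusted p = 0.9997), and 321 (1.76%) had an unadjusted p under 0.05. The 95% interval extended by a median of 0.26 above and below the estimate, and for 17283 genes (95%) a 2-fold difference in signal lay outside the interval. Among the 10854 genes with a mean log2 signal of at least 5 that share was 94.2%. Low signals are compressed on the array, so an interval there limits the difference in signal and not in transcript level. Without wild type tumour 1, 1 gene was called, Mtus2, which is described below.

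The groups did not overlap for 133 genes (0.731%): in 54 (0.297%) all 7 deficient values lay above all 3 wild type values, and in 79 (0.434%) below them. Of the 120 splits of the 10 tumours, 1 puts all 7 above all 3 (a share of 0.00833), and 1 puts them below. The observed shares were smaller in each direction, as were those of probe sets below, so separation alone does not mark a genotype effect. Among the genes higher in deficient tumours was Ap2b1, a subunit of the clathrin adaptor AP-2. It had 7.56 to 8.04 in deficient tumours, median 7.80, against 7.32, 7.04 and 7.04 in wild type tumours (difference 0.66, SE 0.20). Csnk2a1, the catalytic subunit of casein kinase 2, had 9.43 to 9.75 in deficient tumours against 9.36, 9.25 and 9.20 in wild type tumours. Ergic1, a protein of the compartment between endoplasmic reticulum and Golgi, had 9.05 to 9.31 in deficient tumours against 8.79, 9.02 and 8.89 in wild type tumours. The probe sets of each gene disagreed: 1 of 3 separated the groups for Ap2b1, where the others differed by 0.08 and 0.10, 2 of 6 for Csnk2a1 and 2 of 5 for Ergic1. Ap2b1 was also called between the series, 0.95 higher in lower-numbered than in higher-numbered tumours (limma adjusted p = 7.24e-05).

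Among the genes with lower values in deficient tumours, Slc50a1, a sugar transporter, had 6.42 to 6.77 in deficient tumours, median 6.67, against 7.20, 6.86 and 7.14 in wild type tumours (difference -0.44, SE 0.12). Tmem273 had 3.51 to 4.10 in deficient tumours, median 3.95, against 5.01, 4.28 and 4.24 in wild type tumours (difference -0.64, SE 0.19). Sun3, a nuclear envelope protein known from spermatids, had 2.74 to 2.83 in deficient tumours against 2.97, 3.23 and 3.12 in wild type tumours. The difference of Sun3, -0.31 (SE 0.08), had the smallest p of all genes, and its values sit near the lowest signals of the array. The other genes named by the same rule were Csmd1 at -0.33, Col23a1 at -0.25, Adam34 at -0.24, Ms4a20, Rusf1 and Mro at -0.23 each and Zim3 at -0.22. All but Slc50a1, Tmem273 and Rusf1 had every value of both groups under 4. The limma adjusted p of each of these genes was 0.9997.

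Testing each of 45037 probe sets gave 1 call (0.00222%) and 1045 probe sets (2.32%) with an unadjusted p under 0.05. The call was a probe set of Syne2, which encodes the nuclear envelope protein nesprin-2. This probe set had 4.27 to 5.50 in deficient tumours, median 4.54, against 3.30, 3.46 and 3.53 in wild type tumours. Every deficient value lay above every wild type value, and the difference was 1.28 (SE 0.18, limma adjusted p = 0.0146, exact permutation p = 0.00833, the smallest that 120 splits can give). Groups without overlap put a permutation p at or near this minimum. The probe set was picked from these same arrays, so its permutation p is no separate support. The 3 other Syne2 probe sets differed by 0.07, -0.04 and 0.18 and overlapped between the groups. In the higher-numbered series the probe set had 2.71 to 3.32 in deficient tumours against 2.90 to 3.24 in wild type tumours, with overlapping groups. Averaged over genotypes, it was 1.07 higher in lower-numbered than in higher-numbered tumours (limma adjusted p = 1.78e-06). The wild type values of the lower series and all values of the higher series were low signals for the array. The genotype difference of the lower series exceeded that of the higher by 1.34 (95% interval 0.84 to 1.83), which did not pass over all probe sets (limma adjusted p = 0.466). The call was lost when any 1 of the 3 wild type tumours was left out (adjusted p 0.139, 0.189 and 0.129) and in a fit of the 10 arrays alone (adjusted p 1.0). With the 18S control signal as a covariate, added after the data were seen, the difference was 1.07 (adjusted p 0.639).

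Lancl1, a LanC-like gene whose protein binds glutathione, had probe sets that separated the genotypes of the lower series in opposite directions. The dimmer probe set had 5.07 to 5.93 in deficient tumours, median 5.43, against 6.19, 6.64 and 6.44 in wild type tumours, a difference of -1.0 (SE 0.18, limma adjusted p = 0.130, exact permutation p = 0.00833). The brighter probe set had 9.85 to 10.06 in deficient tumours, median 9.96, against 9.79, 9.51 and 9.78 in wild type tumours. Its difference was 0.26 (SE 0.12, limma adjusted p = 0.9999). Both sets of values were free of overlap, which by itself puts a permutation p at or near its minimum. In the higher-numbered tumours, which share no array with these, the dimmer probe set had 5.19 to 6.04 in deficient tumours against 6.49 to 7.03 in wild type tumours (difference -1.07, limma adjusted p = 0.0125, where 0.00444% of probe sets were called). It was the 1 probe set without overlap in the same direction in both series, out of 441 probe sets without overlap in the lower series. The higher series had its own probe sets without overlap, and how many the series would share by chance was not tested. The count of 1 is therefore no separate support. The genotype difference of the dimmer probe set changed by 0.08 between the series (95% interval -0.40 to 0.56). In the lower series this probe set was called with array weights, at -1.07 (adjusted p 0.00195), and without deficient tumour 7, at -1.08 (adjusted p 0.0297). None of the other fits called it there.

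Most such differences appeared in 1 probe set of a gene. Of 246 genes with more than 1 probe set and at least 1 of them free of overlap, 231 had just 1 such probe set, 15 had 2 or more, and 4 had them in both directions. Chosen after its values were seen, Add1, which encodes the membrane skeleton protein alpha-adducin, had 6.32 to 6.93 in deficient tumours at 1 probe set, median 6.47, against 5.61, 5.89 and 5.87 in wild type tumours (difference 0.75, SE 0.13, limma adjusted p = 0.107). It was called only with array weights, at 0.67 (adjusted p 0.0214), and with the 3' minus 5' covariate, at 0.76 (adjusted p 0.039). Its other probe sets differed by 0.08 and 0.02. Aqr, an RNA helicase of the spliceosome chosen likewise, had 3 of 5 probe sets higher without overlap, by 0.50, 0.77 and 0.38, while its brightest differed by 0.02. Of the 264 probe sets (0.586%) higher in every deficient tumour, 25.4% were also called between the series of title numbers. That share was 7.19% of all probe sets and 5.65% of the 177 lower ones (0.393%). Of the 67 calls among the 264, 48 were higher and 19 lower in lower-numbered tumours. Of the 10 calls among the 177, 4 were higher and 6 lower. The arrays that picked these probe sets also enter the series comparison, so the shares are not independent of that choice. Over all probe sets, 3.52% were called higher and 3.67% lower in lower-numbered tumours. The part of series and of 18S signal in these differences was not tested beyond the values given.

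**Figure D2:**
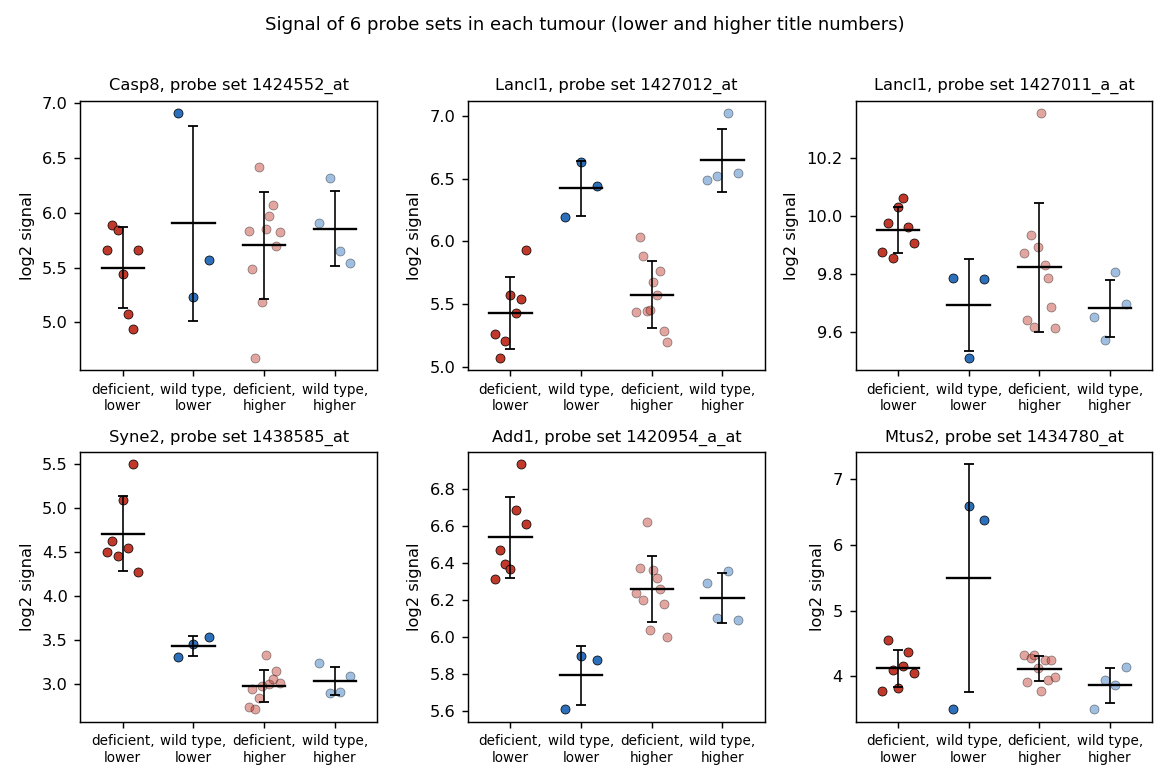
Log2 signal of 6 probe sets (vertical axes) in each tumour of the lower-numbered (full colour) and higher-numbered series (pale), with deficient tumours in red left of wild type tumours in blue. Bars give mean and SD. The dimmer Lancl1 probe set is lower in deficient tumours of both series, the Syne2 and Add1 groups do not overlap in the lower series, and the Casp8 groups overlap in both.

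An engineered allele can carry neighbouring sequence of its strain of origin, so the genes around Casp8 were looked at by themselves. Of the 40 measured genes on each side of Casp8 on chromosome 1, limma called 0 of 80, and 1 (1.25%) had an unadjusted p below 0.05, compared with 1.76% of all genes. That gene, Nbeal1, had 6.79 to 7.46 in deficient tumours against 7.49, 7.62 and 7.24 in wild type tumours (difference -0.35, SE 0.15). Pard3b, a cell polarity gene, was the 1 gene whose groups did not overlap, at 5.32 to 5.71 in deficient tumours against 4.99, 5.26 and 5.20 in wild type tumours. Both were named after their values were seen. Among the 171 probe sets of these genes, 3 (1.75%) separated the groups, those of Sf3b1, Creb1 and Pard3b, against 0.979% of all probe sets. Lancl1 lies on the same chromosome, 55 places from Casp8 in the order of measured genes. The limit of 40 genes on each side was a choice, and the counts above do not cover Lancl1. Whether sequence carried with the allele reaches any of these genes was not tested.

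The genotype difference was then set against that of the higher-numbered tumours. Of 18193 genes, 936 (5.14%) had an unadjusted p under 0.05 for a change of the difference between the series, and 0 passed the adjusted test in limma (lowest adjusted p = 0.916). In the higher series alone 1580 genes (8.68%) had an unadjusted p under 0.05 and 0 were called. Only 20 genes had an unadjusted p under 0.05 in both series, 6 with the same sign and 14 with opposite signs. The 6, Ccdc149, Dbt, Wdsub1 and Zim3 with lower and Layn and Mb21d2 with higher values in deficient tumours, are 1.9% of the 321 genes of the lower series and 0.38% of the 1580 of the higher. Dbt, a subunit of the branched-chain ketoacid dehydrogenase, differed by -0.48 in the lower and -0.50 in the higher series. Layn, a hyaluronan receptor, differed by 0.22 and 0.25. Over all genes, 45.5% had the same sign in both series, and the correlation of the differences across genes was -0.107; genes are not independent replicates.

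The 6 genes of smallest p for the change between series had opposite signs in the series, which choosing genes by this p favours. Tinf2, a shelterin component, differed by -0.23 in the lower and 0.39 in the higher series. Ubxn4 differed by 0.19 and -0.40, Ccm2, an adaptor of endothelial junction signalling, by -0.14 and 0.33, and Slc50a1 by -0.44 and 0.18. Siglece differed by -0.20 and 0.27, and Ppp2r3a, a regulatory subunit of protein phosphatase 2A, by 0.30 and -0.48. Averaged over genotypes, 751 genes (4.13%) were called between the lower and the higher series, 389 higher (2.14%) and 362 lower (1.99%) in lower-numbered tumours.

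**Figure D3:**
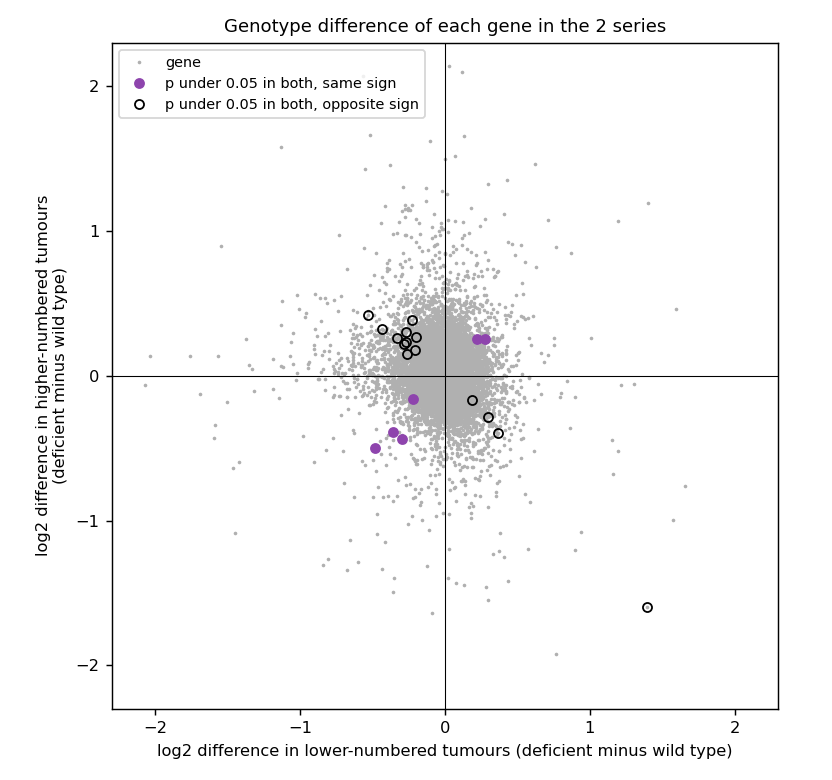
Log2 difference, deficient minus wild type, of each of 18193 genes in the lower-numbered tumours (horizontal) and in the higher-numbered tumours (vertical). Filled points mark the 6 genes with an unadjusted p under 0.05 and the same sign in both series, open circles the 14 with opposite signs, and the cloud shows no rise along the diagonal (correlation -0.107).

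Macrophage, MHC and interferon response genes mostly had lower means in deficient tumours and their highest values in wild type tumour 1, and none passed the test. Among other immune lists, wild type tumour 1 was highest for 7 of 14 T and NK cell markers, 7 of 12 B and plasma cell markers, 1 of 9 mast cell markers and 1 of 11 neutrophil markers, and 8 of the 11 neutrophil markers had higher means in deficient tumours (median 0.04). Macrophage markers averaged 6.94 to 7.63 in deficient tumours, median 7.36, against 8.64, 6.96 and 6.99 in wild type tumours. MHC class I genes, which present antigen, averaged 6.30 to 6.91 in deficient tumours, median 6.53, against 8.06, 6.32 and 6.37 in wild type tumours. In both lists wild type tumour 1 was far above the rest, while wild type tumours 2 and 3 lay at the low end of the deficient range. Over all tumours 16 of 18 macrophage markers and 11 of 11 MHC class I genes were lower in deficient tumours, with medians of -0.26 and -0.32. Without wild type tumour 1, 17 of 18 and 11 of 11 were higher, with medians of 0.29 and 0.32. In the higher-numbered series 7 of 18 macrophage markers were higher in deficient tumours, with a median of -0.05. Of the MHC class I genes 0 of 11 were higher there, with a median of -0.39, the direction seen here with all tumours. In a bulk tumour, fewer cells of a type and less RNA per cell cannot be told apart.

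The interferon response list, with Ifih1 at -0.72 (SE 0.47) and Ifit1 at -0.54 (SE 0.33), had a median of -0.18, and 0.14 without wild type tumour 1. Ifih1, a sensor of viral RNA, had 3.96 to 5.47 in deficient tumours, median 5.05, against 7.35, 4.88 and 4.71 in wild type tumours. NF-kB target genes had a median of -0.18, and 0.24 without that tumour, when 14 of 14 were higher in deficient tumours. Among them Icam1, a leukocyte adhesion molecule, was at -0.50 and 0.21, and Nfkbia, the inhibitor of NF-kB, at -0.24 and 0.01. Tyrobp and Fcer1g, signalling adaptors of myeloid cells, were at -0.57 and -0.56 with all tumours and at 0.28 and 0.48 without wild type tumour 1.

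Wild type tumour 1 was also highest for 8 of 12 fibroblast markers and 16 of 21 interstitial matrix genes. It was highest for only 1 of 14 basement membrane genes and 4 of 14 matrix metalloproteinase and inhibitor genes. Fibroblast markers averaged 5.92 to 7.13 in deficient tumours, median 6.41, against 7.83, 5.90 and 6.13 in wild type tumours, and interstitial matrix genes had a list median of -0.27, or 0.16 without wild type tumour 1. In the higher-numbered series 20 of 21 matrix genes were higher in deficient tumours, with a median of 0.75. Mmp14, a membrane-bound matrix protease, had 5.87 to 7.04 in deficient tumours, median 6.32, against 7.77, 6.85 and 7.0 in wild type tumours (difference -0.85, SE 0.27, unadjusted p = 0.0049 in limma). The highest deficient tumour exceeded wild type tumours 2 and 3, so the groups overlapped. Its difference in the higher series was 0.38. Adipocyte markers spread widely among deficient tumours, 5.87 to 8.46, with deficient tumour 3 highest, against 7.90, 6.32 and 6.27 in wild type tumours.

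Of the endothelial markers, 18 of 19 had higher means in deficient tumours, with a median of 0.15 and 0 with an unadjusted p under 0.05. Emcn, a sialomucin of small vessels, had 6.30 to 7.62 in deficient tumours, median 6.99, against 6.59, 6.18 and 6.62 in wild type tumours (difference 0.48, SE 0.37). Robo4 differed by 0.37 (SE 0.26) and Tie1, an endothelial receptor kinase, by 0.28 (SE 0.25). The list averaged 5.67 to 6.78 in deficient tumours, median 6.5, against 6.17, 6.09 and 6.18 in wild type tumours. Deficient tumours 4, 5 and 7 lay below or among the wild type tumours and the other 4 above them. Deficient tumour 3 had the highest value of all tumours for 14 of the 19 markers, and its part in the list median was not tested. The SD of the list mean was 0.39 in deficient and 0.05 in wild type tumours, so leaving out 1 wild type tumour could change the list mean little. The list median was 0.15 without wild type tumour 1, 0.15 without tumour 2 and 0.14 without tumour 3, and 0.52 in the higher series, where 19 of 19 were higher.

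Skeletal muscle genes set wild type tumour 3 apart. Their list mean was 3.97 to 4.13 in deficient tumours, against 3.92, 3.97 and 7.73 in wild type tumours, so that 1 of the 10 tumours stood far above the rest. Myh4, a fast myosin heavy chain, had 3.29 to 3.76 in deficient tumours against 3.42, 3.92 and 8.35 in wild type tumours. Mylpf, a myosin light chain, had 4.18 to 5.05 in deficient tumours against 4.55, 4.31 and 8.99 in wild type tumours. The list median was -1.26, and 0.08 without wild type tumour 3.

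Among stimulus-responsive genes, wild type tumour 2 was high. Fos, an immediate early transcription factor, had 5.87 to 8.67 in deficient tumours, median 7.22, against 8.37, 10.40 and 7.36 in wild type tumours (difference -1.45, SE 0.62, unadjusted p = 0.0287 in limma). Egr1 had 7.53 to 9.54 in deficient tumours, median 8.29, against 8.14, 10.32 and 8.57 in wild type tumours. The list averaged 6.27 to 7.52 in deficient tumours, against 6.84, 7.59 and 6.57 in wild type tumours, and the groups overlapped. Leaving out wild type tumour 2 gave a difference of -0.60 for Fos and -0.04 for Egr1, and a list median of 0.08, against -0.06 with all tumours.

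Gene lists of the tumour lineage and of growth had medians near 0. Of 14 catecholamine genes 11 had higher means in deficient tumours, with a median of 0.09, and 3 of 14 were higher without wild type tumour 1, with a median of -0.13. Chga, a granule protein of chromaffin cells, had 9.05 to 10.27 in deficient tumours, median 9.58, against 8.60, 9.66 and 9.79 in wild type tumours. Wild type tumour 1 was the lowest of the 10 for Chga, and so it was for Gata3, a transcription factor of sympathetic neurons (difference 0.46, SE 0.51). Cell cycle genes had a median of -0.01 over 21 genes, with a widest difference of 0.13, and MYC target and ribosome biogenesis genes 0.02 over 20 genes. The neuronal differentiation list averaged 9.88 to 10.23 in deficient tumours, against 9.76, 10.17 and 9.99 in wild type tumours, with a median of 0.04.

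**Figure D4:**
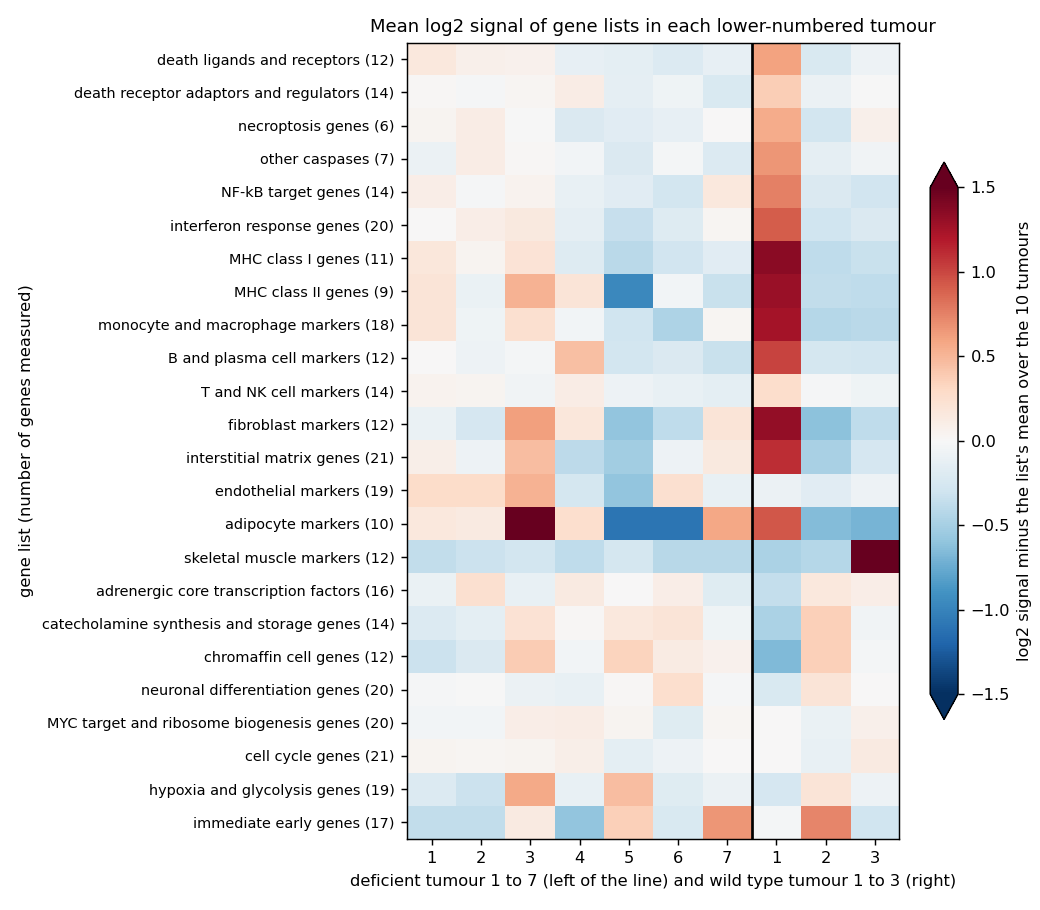
Mean log2 signal of 24 gene lists (rows, number of measured genes in brackets) in the 7 deficient tumours (left of the line) and the 3 wild type tumours (right), as the difference from the list's mean over the 10 tumours; colours saturate at 1.5. Wild type tumour 1 is highest for macrophage, MHC, interferon, fibroblast and interstitial matrix lists, wild type tumour 3 for skeletal muscle and deficient tumour 3 for adipocyte markers.

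**Figure D5:**
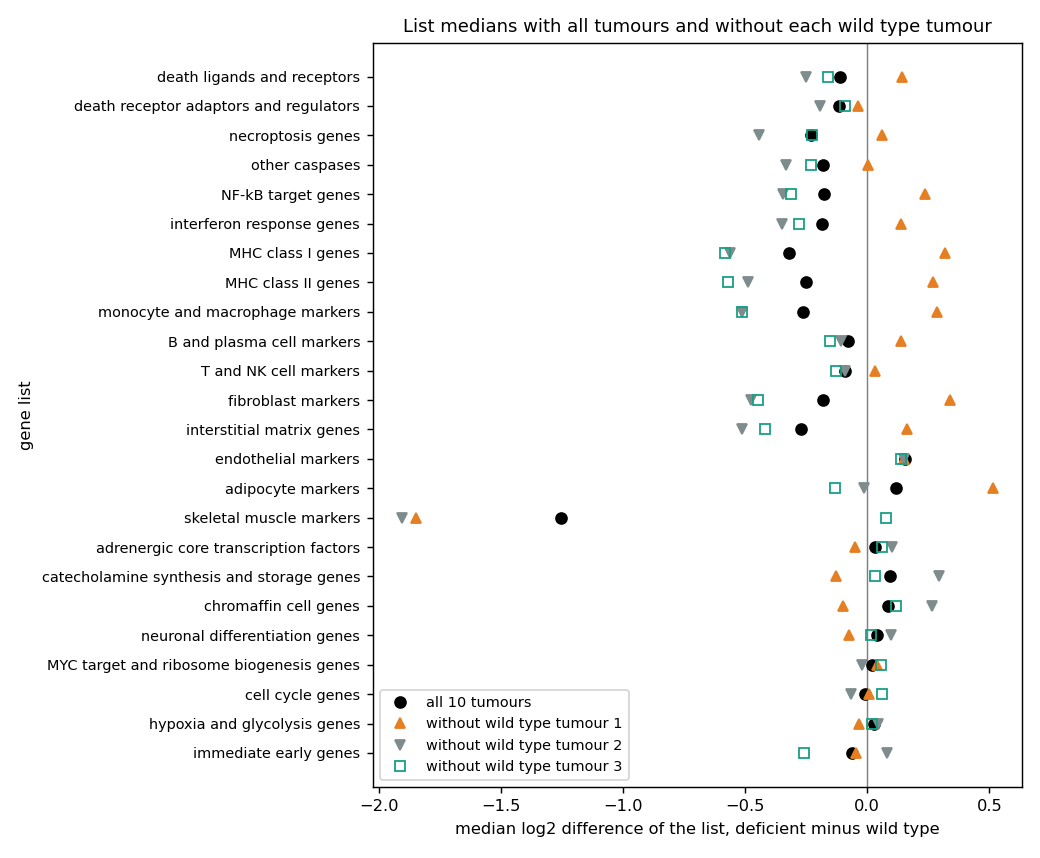
Median log2 difference, deficient minus wild type, of 24 gene lists (horizontal axis) with all 10 tumours and after leaving out each wild type tumour in turn. Macrophage, MHC and death ligand medians pass from below to above 0 without wild type tumour 1, the skeletal muscle median does so without wild type tumour 3, and the endothelial median stays between 0.14 and 0.15.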

How the data were processed

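Total RNA from the tumours was extracted with Trizol and labelled by the 2-cycle protocol from 100 ng, per the labels' protocols, and hybridised to a mouse 3' expression array. The deposited values are log2 signals that the authors made with RMA in Partek 6.6, per the submitters' processing notes. The sources used here do not say if that was done on all arrays at once. An array has no read depth, and precision is limited by the number of arrays. Of 45101 probe sets, 64 were controls, 34945 had 1 gene symbol in the platform annotation, 932 several and 9160 none listed. Names were updated through the Entrez ID for 34741 with a table of assembly GRCm38.p6, used only for names and gene order. Each of 18193 genes was represented by its probe set of highest mean over the 24 tumours; 9010 genes had more than 1.

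The 24 tumours were fitted in 4 groups (series by genotype) with limma 3.58.1 in R 4.3.3 (lmFit, eBayes, two-sided, Benjamini-Hochberg over all genes or probe sets), with no filter on low values. The fit was tested on simulated data. Single values were also tested by exact permutation over 120 splits of the 10 tumours. Gene lists (46 lists, 607 of 659 entries measured) are described by counts and medians, with no test. Alternatives were other normalizations, covariates, probe set summaries and filters, array weights, the 10 arrays alone and leaving out 1 tumour. Each tumour was left out in turn except the deficient tumours of the higher series. The 18S covariate and the fit without wild type tumours 1 and 3 were added after the data were seen. The named genes were, with fewer than 5 calls in a direction, up to 10 of largest difference among those with unadjusted p under 0.01 and no overlap; the 6 of smallest p between series; called probe sets and those of Lancl1; Casp8, Mycn, Th and Dbh; and from lists described, members among the 3 of smallest p. Cflar was named beside them after its values were seen. Members, lists and rules were chosen with earlier results of these data known. Figures were drawn with matplotlib 3.10.9.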

Additional observations from a re-analysis of the deposited data

Results flagged for a closer look

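Among the 7 deficient tumours, 161 genes, probe sets and list means named or described were checked for 1 tumour far from the other 6 by Dixon's test at the 95% level, and 14 were; chance alone gives about 1 in 20. Deficient tumour 5 was the lowest for Casp1 (4.29), Psmb8 (4.8), an immunoproteasome subunit, Ifih1 (3.96) and Layn (3.88). It was the highest for Bbc3 (7.93), which encodes the pro-apoptotic protein PUMA, where the other 6 tumours ran from 6.45 to 6.97, and for a second Syne2 probe set (7.28), where the others ran from 6.42 to 6.54. Deficient tumour 6 was the highest for Dbh (9.05) and for the mean of the neuronal differentiation list (10.23). Deficient tumour 7 was the highest for Hrk (8.72), a BH3-only protein, and Aldoc (5.27), a glycolytic enzyme, and the lowest for Rusf1 (5.63). Deficient tumour 1 was the lowest for Ttll1 (6.34) and the highest for the mean of the mast cell list (3.92). Deficient tumour 3 was the highest for the mean of the mesothelial list (4.93), where the others ran from 4.08 to 4.36.

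The 18S ribosomal RNA control signal, which is no gene of the comparisons and entered them only as a covariate added after the data were seen, was higher in deficient tumours by 0.68, with 6 of 7 deficient tumours above all 3 wild type ones (exact permutation p = 0.0417).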

How the results depend on the processing

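No paired analysis was possible because the titles number every tumour differently and the labels give no replicate number that groups share. Most of the recomputed values kept their direction and their side of the threshold. The cause of the changes below was not tested.

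No gene was called with all tumours, 1 with array weights (Mtus2) and 3 without wild type tumours 1 and 3, and leaving out 1 tumour gave between 0 and 1. The 1 called probe set became 0 with the 10 tumours alone, with a mean signal of at least 5 (Syne2 then being left out by the filter) and with the 18S covariate, 2 with the 3' minus 5' covariate, 6 with array weights and 8 without wild type tumours 1 and 3; leaving out 1 tumour gave between 0 and 2. The fit without wild type tumours 1 and 3 keeps 1 lower-numbered wild type array, tumour 2, assumed to vary like the other groups, so its calls describe that tumour. For the change between series, leaving out 1 tumour gave between 0 and 1 called genes and between 0 and 2 probe sets. Genes called between series, 751, became 1255 with array weights and between 418 and 765 when 1 tumour was left out. No deficient tumour of the higher series was left out in these fits.

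Array weights turned the sign of Th (-0.056), Dbh (-0.11), Chga (-0.0115), Ddc (0.0343), Ltb (0.0428), Icam1 (0.0662), Itgb5 (0.0111), Itga4 (0.13), Thbs2 (0.003), Tyrobp (0.0317), Fcer1g (0.19), Psmb9 (0.13), Psmb8 (0.0012) and a Syne2 probe set (-0.0204). The mean of probe sets turned Ddc (0.18).

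Leaving out 1 tumour turned the sign of these differences, given as lowest and highest. In cell death genes they were Casp8 -0.74 and 0.10, Casp1 -1.13 and 0.31, Casp12 -0.50 and 0.0016, Ripk3 -0.66 and 0.10, Tlr3 -0.56 and 0.0849, Tnfrsf1b -0.69 and 0.18, Tnfsf10 -0.51 and 0.14, and Ltb -0.91 and 0.26. In immune and NF-kB genes they were Cd68 -0.68 and 0.0773, Fcer1g -1.10 and 0.48, Tyrobp -0.99 and 0.28, Icam1 -0.88 and 0.21, Nfkbia -0.39 and 0.0073, Ifih1 -1.19 and 0.13, Ifit1 -0.92 and 0.0597, Psmb8 -0.92 and 0.24, Psmb9 -0.86 and 0.33, and Tap2 -0.52 and 0.0565. In lineage genes they were Mycn -0.0464 and 0.16, Th -0.19 and 0.42, Dbh -0.57 and 0.79, Chga -0.0947 and 0.50, Ddc -0.15 and 0.0428, Ina -0.0395 and 0.22, and Syt4 -0.0448 and 0.52. In other genes they were Ankrd37 -0.0322 and 0.56, Vegfa -0.10 and 0.79, Fosb -0.83 and 0.0642, Itga4 -0.55 and 0.29, Itgb5 -0.54 and 0.14, Thbs2 -0.64 and 0.18, Prrx1 -0.61 and 0.0716, Mylpf -2.24 and 0.10, the 2 Syne2 probe sets -0.0792 and 0.15, and -0.34 and 0.12, and the change of the dimmer Lancl1 probe set between series -0.0501 and 0.18.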

Other observations

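Mtus2, a microtubule-associated protein chosen after its values were seen, split the wild type tumours. 1 of its probe sets had 3.78 to 4.56 in deficient tumours, median 4.09, against 3.51, 6.59 and 6.38 in wild type tumours, and another had 3.48 to 4.65 in deficient tumours against 3.64, 7.16 and 6.99 in wild type tumours. The remaining probe set overlapped, with a difference of -0.03. In the higher-numbered series the first had 3.78 to 4.32 in deficient tumours and 3.50 to 4.15 in wild type tumours, so the high values were those of wild type tumours 2 and 3 of the lower series. With all tumours the difference was -1.37 (SE 0.38) and not called. Without wild type tumour 1 it was -2.37 and called by limma (adjusted p = 1.17e-07), as was the change between the series, at -2.62 (adjusted p = 1.13e-06).

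Nts, which encodes the neuropeptide neurotensin and was also chosen after its values were seen, had the widest pair of opposite differences among the 20 genes with an unadjusted p under 0.05 in both series. It averaged 5.62 ± 1.63 in deficient and 4.23 ± 0.61 in wild type lower-numbered tumours (SD, n = 7 and n = 3), a difference of 1.39, against -1.60 in the higher-numbered tumours. The change between series did not pass the adjusted test.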
